A study of Mus musculus with 15 samples.

Results

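Mural cells are the contractile and supporting cells that wrap the endothelium of brain vessels. Described here are 10 genes that mark them, chosen as a fixed list of names from 53278 gene symbols with read counts in mouse cortex. They are Pdgfrb, Notch3 and Rgs5, found in pericytes and smooth muscle alike, then Kcnj8, Abcc9, Vtn and Anpep, which lean to pericytes, and Myh11, Acta2 and Tagln, which mark smooth muscle. This list was chosen with earlier results of these data known, so its counts set beside those of all genes are descriptive. Whole cortex of 15 male C57BL/6J mice from the Jackson Laboratory was sequenced, 1 library per mouse, 5 mice per group, at an age given as 10 to 20 weeks. The repopulation mice ate food with PLX3397 for 9 days and control food for the next 9 days. The depletion mice ate PLX3397 food for 9 days, and the control mice ate control food. PLX3397 inhibits CSF1R, the receptor that microglia need to survive, and it also inhibits the related kinases KIT and FLT3. The labels give neither the drug content of the food nor whether meninges were stripped from the cortex.

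Pericytes sit on capillaries inside the basement membrane that they share with the endothelium, and smooth muscle cells ring arterioles and venules. Endothelial PDGF-B acts through PDGFRβ to recruit and hold mural cells, and Notch ligands on endothelium act through NOTCH3 to mature them. In smooth muscle, serum response factor and its partner myocardin bind CArG boxes and switch on the contractile genes. In bulk tissue, fewer cells of a type and less RNA per cell cannot be told apart.

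All 10 genes passed the filter on low counts, and none was at 0 in any library. Per kilobase of exon, the control means were 27.6 ± 3.05 CPM for Vtn and 23.5 ± 1.17 CPM for Rgs5 (SD, n = 5 each), the highest of the 10. CPM is the read count scaled to library size with TMM factors. Pdgfrb (5.29 ± 0.271), Acta2 (3.29 ± 0.501) and Notch3 (2.31 ± 0.181) followed on the same per-kilobase scale in control mice. Anpep (1.67 ± 0.179), Abcc9 (1.56 ± 0.108) and Kcnj8 (1.36 ± 0.24) lay close together, with SD ranges that overlapped between neighbours. Myh11 (1.03 ± 0.0465) and Tagln (0.802 ± 0.247) were lowest per kilobase.

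The upstream sequences of 4 members are shown because 3 of these genes changed in level (Rgs5, Notch3 and Kcnj8) and the fourth, Acta2, carries a textbook smooth muscle element. They come from RefSeq on GRCm38.p6, the 250 bases before the annotated start, read 5′ to 3′ on the gene's strand. Capitals mark TGGGAA, the core that the Notch partner RBPJ binds, GGGCGG, the GC box, and CCCTATATGG, a CArG element of Acta2, each on either strand. The Acta2 window is cut to 30 bases around this element, which ends 74 bases before the start.
Rgs5, chr1:169655251-169655500, plus strand: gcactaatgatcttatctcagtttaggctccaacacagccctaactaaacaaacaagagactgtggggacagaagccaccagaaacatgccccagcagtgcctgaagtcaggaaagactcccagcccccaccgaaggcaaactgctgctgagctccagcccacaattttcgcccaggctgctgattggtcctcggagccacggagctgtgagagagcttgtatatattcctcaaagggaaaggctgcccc
Notch3, chr17:32166891-32167140, minus strand: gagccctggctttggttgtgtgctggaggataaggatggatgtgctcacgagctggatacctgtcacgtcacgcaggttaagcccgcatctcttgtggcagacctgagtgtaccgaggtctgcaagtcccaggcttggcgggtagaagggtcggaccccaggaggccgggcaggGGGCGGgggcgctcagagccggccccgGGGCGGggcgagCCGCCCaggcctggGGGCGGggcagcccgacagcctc
Kcnj8, chr6:142571615-142571864, minus strand: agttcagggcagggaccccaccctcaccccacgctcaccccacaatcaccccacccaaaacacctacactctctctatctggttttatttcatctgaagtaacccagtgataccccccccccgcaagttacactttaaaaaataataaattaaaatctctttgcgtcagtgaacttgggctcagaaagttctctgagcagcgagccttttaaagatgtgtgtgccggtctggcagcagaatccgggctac
Acta2, chr19:34255438-34255467, minus strand: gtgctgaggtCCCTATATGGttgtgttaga

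Promoters of 7 members were in the reference table. Those of Pdgfrb, Myh11 and Tagln were not, so of the smooth muscle genes only Acta2 was searched. The GC box stood in 3 of them (Notch3, Abcc9 and Anpep), against 32.7% of all 32851 promoters searched over the same 250 bases. TGGGAA stood in Abcc9, Vtn and Acta2, against 21.6% of all promoters, and in none of Rgs5, Notch3 and Kcnj8. The exact sequence CCCTATATGG, taken from the Acta2 promoter itself, occurred in 9 promoters, or 0.0274%. The strict CArG box was in none of the 7 and in 1.47% of all promoters. Base composition differed widely among the windows, with 53.6% G and C in Rgs5, 68.8% in Notch3 and 49.2% in Kcnj8. A letter match describes the sequence only.

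Total counts per library were 26837517 to 29582274 in repopulation mice, 23413551 to 29482140 in depletion mice and 24347802 to 48617851 in control mice. The target of the drug checked the labels: Csf1r had 104.9 ± 5.47 CPM in repopulation, 0.215 ± 0.120 CPM in depletion and 84.9 ± 4.09 CPM in control mice (SD, n = 5 each). All 8 microglial and 5 border macrophage markers fell in depletion against control, where 8.35% of all genes were called lower. So did 4 of 4 oligodendrocyte precursor genes (Pdgfra, Cspg4, Matn4 and Neu4). The summed level of these 4 was 100 to 113 CPM in repopulation, 31.5 to 54.1 CPM in depletion and 92.3 to 105 CPM in control mice. Summed choroid plexus genes reached 544 CPM in repopulation mouse 4 and 211 CPM in depletion mouse 2, against at most 23.5 CPM in controls. Summed erythroid genes were 0.696 to 10.3 CPM in repopulation, 0.516 to 4.75 CPM in depletion and 1.46 to 14 CPM in control mice. In neither list did a gene pass the test in any of the 3 comparisons. Leaving out repopulation mouse 4 changed no call of a member, and leaving out depletion mouse 2 ended 1, that of Notch3 in depletion against control.

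The 3 comparisons share their groups, so they are not independent of each other, and the values are set side by side. Calls are edgeR quasi-likelihood tests with Benjamini-Hochberg adjusted p under 0.05 over 18369 genes. In depletion against control, 2 of the 10 mural genes fell (Rgs5 and Notch3) and 0 rose, where 8.35% of all genes were called lower and 8.19% higher. Their median log2 fold change was -0.19, with 9 of 10 below 0, against a median of 0 and 50.5% below 0 over all genes tested. In repopulation against control, 2 fell (Kcnj8 and Vtn) and 2 rose (Notch3 and Myh11), where 15.2% of all genes were called lower and 13.9% higher, and the median of the 10 was 0.05. In repopulation against depletion, 4 rose (Pdgfrb, Notch3, Rgs5 and Myh11) and 0 fell, where 7.61% of all genes were called higher and 8.98% lower, and the median was 0.21. With length and GC trends taken out, calls over all genes split into 776 higher and 3482 lower in repopulation against depletion (1398 and 1649 in the fit above), 1422 higher and 2954 lower in repopulation against control (2548 and 2797) and 1810 higher and 859 lower in depletion against control (1505 and 1533). In that fit the median of the 10 was 0.15 in repopulation against depletion, -0.02 in repopulation against control and -0.09, with 8 of 10 below 0, in depletion against control. The medians over all genes also moved in that fit. They were -0.064 in repopulation against depletion, -0.015 in repopulation against control and 0.042 in depletion against control.

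**Figure D1:**
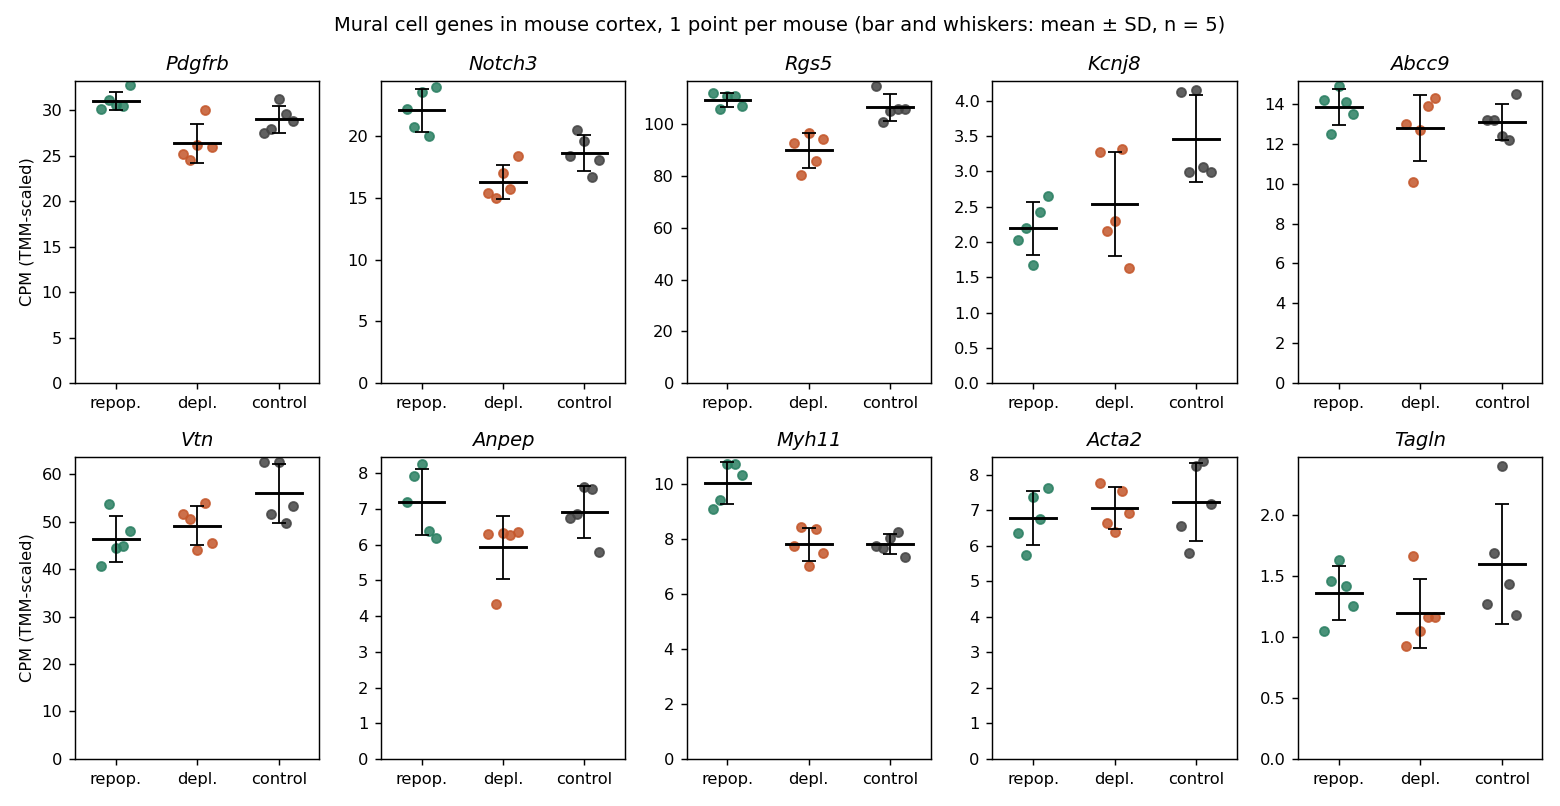
TMM-scaled CPM of each mural gene (vertical axes, from 0) in repopulation, depletion and control mice, with 1 point per mouse and the mean ± SD over 5. Rgs5 was lowest in the 5 depletion mice, Myh11 highest in the 5 repopulation mice, and Acta2 overlapped in all groups.

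Rgs5 encodes a GTPase-activating protein that shortens G protein signals in mural cells and lies at chr1:169655501-169695813 on the plus strand. It had 112, 106, 111, 111 and 107 CPM in repopulation mice, 92.7, 80.3, 96.6, 85.7 and 94.3 CPM in depletion mice, and 115, 101, 105, 106 and 106 CPM in control mice. All 5 depletion mice lay below all mice of both other groups, which overlapped each other. The depletion level was 0.843 times that of controls (log2 fold change -0.25, SE 0.04, 95% interval -0.34 to -0.15, edgeR adjusted p = 0.000338). Groups that do not overlap, with depletion lower, were found for 5.38% of all genes. Repopulation was 1.22 times depletion (0.28, SE 0.04, edgeR adjusted p = 5.53e-05), and its difference from control was 0.04 with a 95% interval of -0.05 to 0.13 (edgeR adjusted p = 0.575).

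Notch3, the receptor whose signal keeps arterial mural cells mature, lies at chr17:32120820-32166852 on the minus strand. It had 22.2, 20.7, 23.6, 20.0 and 24.0 CPM in repopulation mice, 15.4, 15, 17, 15.7 and 18.4 CPM in depletion mice, and 18.4, 20.5, 19.6, 16.7 and 18.1 CPM in control mice. Repopulation lay above depletion in every mouse, and 4 of 5 repopulation mice lay above the highest control. The level in repopulation was 1.36 times depletion (log2 fold change 0.44, SE 0.07, edgeR adjusted p = 4.03e-05) and 1.18 times control (0.24, SE 0.07, edgeR adjusted p = 0.00718). Depletion was 0.871 times control (-0.20, SE 0.07, edgeR adjusted p = 0.0461), a call at the edge of the threshold. It was lost when any of 10 of the 15 libraries was left out (edgeR adjusted p 0.0183 to 0.131 over all 15) and when length and GC trends were taken out (-0.11, edgeR adjusted p = 0.321). The antisense gene Gm17276 overlaps 488 exon bases of Notch3, and in repopulation against control it rose by 0.42 (edgeR adjusted p = 0.0342). Its reads cannot be told apart from those of Notch3 there without strand.

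Pdgfrb encodes the receptor for endothelial PDGF-B. It had 30.2, 31.1, 30.6, 30.5 and 32.8 CPM in repopulation mice, 25.2, 24.5, 26.2, 30.0 and 26.0 CPM in depletion mice, and 27.5, 27.9, 31.2, 29.6 and 28.8 CPM in control mice. The 5 repopulation mice lay above the 5 depletion mice, with depletion mouse 4 nearest to them. Repopulation was 1.18 times depletion (log2 fold change 0.23, SE 0.05, edgeR adjusted p = 0.00298), but 0.13 with an edgeR adjusted p of 0.098 once length and GC trends were taken out. Depletion against control gave -0.13 (SE 0.05, edgeR adjusted p = 0.0854), -0.19 (edgeR adjusted p = 0.0134) without depletion mouse 4 and -0.04 (edgeR adjusted p = 0.698) with length and GC trends taken out. Repopulation against control gave 0.10 (95% interval -0.01 to 0.21, edgeR adjusted p = 0.166). Csf1r is its downstream neighbour on the same strand, 15536 bases away.

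Among all genes, 5.57% had repopulation above depletion in every mouse, and 4 of the 10 mural genes did (Rgs5, Notch3, Pdgfrb and Myh11).

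Kcnj8 and Abcc9 lie 16247 bases apart on chromosome 6 and encode the pore (Kir6.1) and the regulatory subunit (SUR2) of the vascular ATP-sensitive potassium channel. Kcnj8 had 2.02, 2.20, 1.67, 2.42 and 2.65 CPM in repopulation mice, 3.27, 2.15, 2.30, 3.31 and 1.63 CPM in depletion mice, and 4.12, 2.99, 4.15, 3.06 and 2.99 CPM in control mice. The 5 repopulation mice lay below the 5 controls, while the depletion mice spread across both, with 3 of 5 below the lowest control. Groups with repopulation below control in every mouse were found for 11.8% of all genes. Kcnj8 in repopulation was 0.629 times control (log2 fold change -0.67, SE 0.17, 95% interval -1.02 to -0.31, edgeR adjusted p = 0.00431). Depletion against control gave -0.45 (SE 0.17, edgeR adjusted p = 0.0711), past the threshold without depletion mouse 1 (-0.56, edgeR adjusted p = 0.0314) or mouse 4 (-0.57, edgeR adjusted p = 0.0328). Repopulation against depletion gave -0.22 (95% interval -0.59 to 0.15, edgeR adjusted p = 0.467). These values rest on 45 to 76 reads per library in repopulation, 38 to 97 in depletion and 75 to 201 in control mice.

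Abcc9 had 14.2, 12.5, 14.9, 14.1 and 13.5 CPM in repopulation mice, 13, 10.1, 12.7, 13.9 and 14.3 CPM in depletion mice, and 13.2, 13.2, 12.4, 12.2 and 14.5 CPM in control mice. All groups overlapped, with depletion mouse 2 lowest. The 95% intervals were -0.05 to 0.28 for repopulation against depletion, -0.08 to 0.24 for repopulation against control and -0.20 to 0.13 for depletion against control. The difference between Kcnj8 and its channel partner was not tested. The other pore and regulatory subunits of this channel family, Kcnj11 and Abcc8, passed in 0 of 2 cases in each comparison, with log2 fold changes of -0.02 to 0.11.

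Vtn encodes vitronectin, an adhesive protein that brain pericytes secrete, at chr11:78499091-78502324 on the plus strand. It had 40.6, 53.7, 44.4, 44.8 and 48.1 CPM in repopulation mice, 51.7, 50.5, 44.1, 53.9 and 45.6 CPM in depletion mice, and 62.6, 51.6, 62.6, 49.7 and 53.3 CPM in control mice. In repopulation 4 of 5 mice lay below the lowest control, and mouse 2 overlapped. The repopulation level was 0.826 times control (log2 fold change -0.28, SE 0.08, edgeR adjusted p = 0.0185), and the call ended with length and GC trends taken out (-0.19, edgeR adjusted p = 0.0653). Depletion against control gave -0.19 (95% interval -0.36 to -0.01, edgeR adjusted p = 0.136), or -0.06 with these trends taken out, and repopulation against depletion -0.09 (edgeR adjusted p = 0.556).

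Of 4 integrin subunits that form vitronectin receptors, Itgb5 fell by 0.96 in depletion against control (edgeR adjusted p = 7.86e-12) and rose by 1.07 in repopulation against depletion (edgeR adjusted p = 7.26e-13). Itgb5 is also abundant in microglia, whose 8 markers summed to 310 to 351 CPM in repopulation, 13.6 to 17.4 CPM in depletion and 275 to 307 CPM in control mice, and their part in the Itgb5 change was not tested. Itgav, the shared α subunit, rose by 0.18 in repopulation against control (edgeR adjusted p = 0.00154). No other member of this list passed in any comparison.

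Anpep encodes aminopeptidase N (CD13), a surface peptidase of pericytes. It had 7.21, 7.94, 8.27, 6.39 and 6.2 CPM in repopulation mice, 6.30, 4.34, 6.34, 6.28 and 6.37 CPM in depletion mice, and 6.76, 6.86, 7.61, 7.56 and 5.79 CPM in control mice. The groups overlapped, and depletion mouse 2 stood below the other 14 mice. Repopulation against depletion gave a log2 fold change of 0.28 (95% interval 0.05 to 0.51, edgeR adjusted p = 0.0836), depletion against control -0.22 (edgeR adjusted p = 0.178) and repopulation against control 0.06 (edgeR adjusted p = 0.736). Without depletion mouse 2 the first of these was 0.18 (edgeR adjusted p = 0.262) and the second -0.13 (edgeR adjusted p = 0.434).

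**Figure D2:**
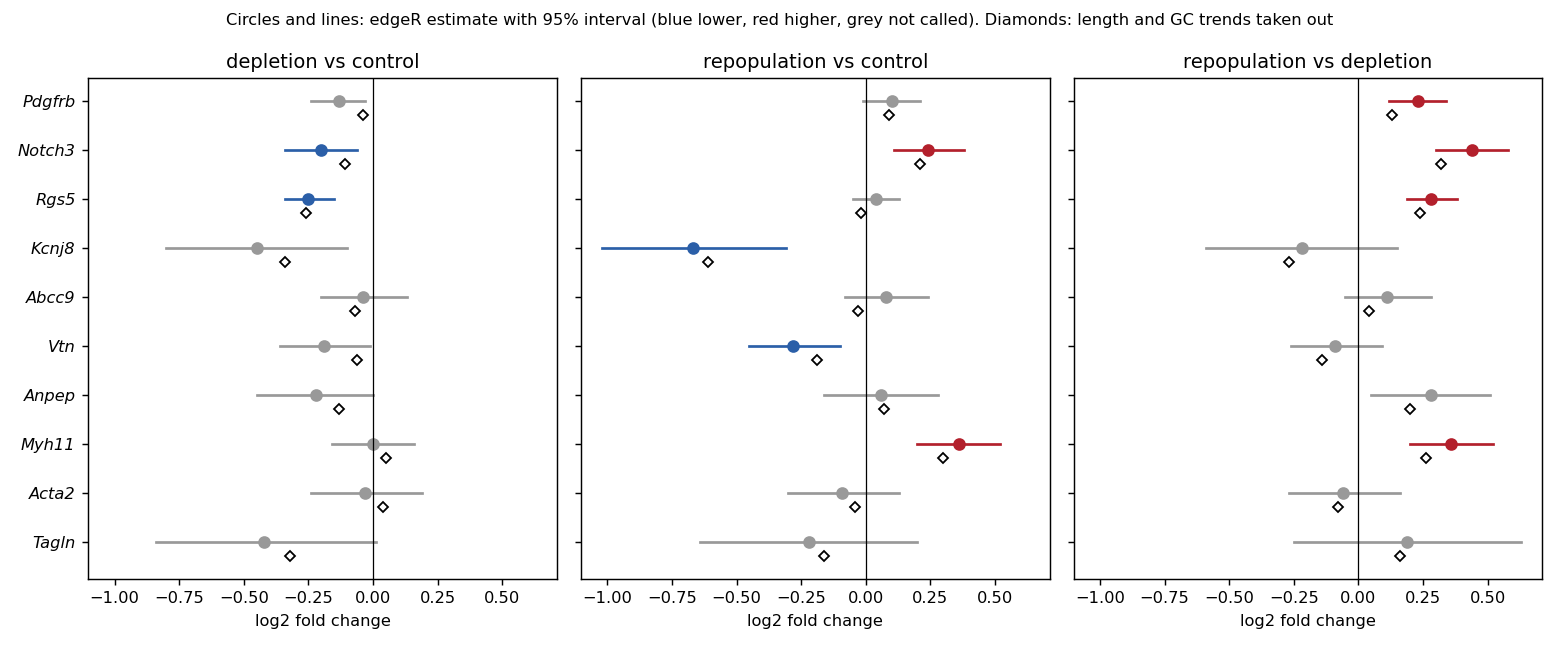
Log2 fold change (horizontal axes) of each mural gene in the 3 comparisons, as circles with 95% intervals (red higher, blue lower, grey not called), with diamonds for the fit with length and GC trends taken out. Notch3 lay at -0.20, 0.24 and 0.44 from left to right, while Kcnj8 lay at -0.45, -0.67 and -0.22.

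Myh11, the smooth muscle myosin heavy chain, lies at chr16:14194535-14291372 on the minus strand. It had 9.07, 9.40, 10.7, 10.7 and 10.3 CPM in repopulation mice, 7.72, 8.43, 7, 8.37 and 7.48 CPM in depletion mice, and 7.74, 7.68, 8.02, 8.25 and 7.32 CPM in control mice. Every repopulation mouse lay above every mouse of both other groups, which overlapped each other. Groups with repopulation above control in every mouse were found for 10.5% of all genes. The repopulation level was 1.28 times control (log2 fold change 0.36, SE 0.08, edgeR adjusted p = 0.000824) and 1.28 times depletion (0.36, SE 0.08, edgeR adjusted p = 0.00181). Both calls held without each library in turn and with length and GC trends taken out. Depletion against control gave 0 with a 95% interval of -0.16 to 0.16.

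Acta2, smooth muscle α-actin, had 6.37, 5.73, 7.38, 6.75 and 7.62 CPM in repopulation mice, 7.76, 6.63, 6.38, 7.55 and 6.93 CPM in depletion mice, and 6.56, 5.79, 8.23, 8.37 and 7.17 CPM in control mice. The groups overlapped throughout. Its 95% intervals were -0.27 to 0.16 for repopulation against depletion, -0.30 to 0.13 for repopulation against control and -0.24 to 0.19 for depletion against control.

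Tagln encodes transgelin (SM22α), an actin-binding protein of smooth muscle. It had 1.05, 1.46, 1.63, 1.42 and 1.25 CPM in repopulation mice, 0.925, 1.66, 1.05, 1.16 and 1.16 CPM in depletion mice, and 1.27, 1.69, 2.40, 1.43 and 1.18 CPM in control mice. All groups overlapped, with control mouse 3 highest. With 26 to 70 reads per library the intervals were wide, from -0.84 to 0.01 in depletion against control (edgeR adjusted p = 0.184). Its counts are also uncertain, since 48.3% of its 50-base stretches are shared with Pcsk7 or Gm48529 on the opposite strand. So of the 3 smooth muscle genes, Myh11 was the one called in any comparison. The difference between the smooth muscle genes was not tested.

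The wider contractile list held 22 genes, of which 21 were tested. In all, 2 fell and 0 rose in depletion against control (Tpm1 by 0.12, edgeR adjusted p = 0.00859, and Tpm2 by 0.31, edgeR adjusted p = 0.033), both tropomyosins. In repopulation against control 1 rose, the actin-binding Synpo2 (0.33, edgeR adjusted p = 0.0137), and 3 fell, Tpm1, Csrp1 and the light chain Myl9 (-0.38, edgeR adjusted p = 0.00331). In repopulation against depletion Flna rose by 0.16 (edgeR adjusted p = 0.00368) and Csrp1 fell by 0.32 (edgeR adjusted p = 0.000286). Shares called over all genes were 8.35% lower and 8.19% higher in depletion against control, and 15.2% lower and 13.9% higher in repopulation against control. For repopulation against depletion they were 8.98% lower and 7.61% higher. Tpm1, Csrp1 and Flna are made by many brain cells besides smooth muscle. The list medians were 0.09 in repopulation against depletion, -0.06 in repopulation against control and -0.07 in depletion against control. Its summed level was 582 to 609 CPM in repopulation, 587 to 647 CPM in depletion and 633 to 672 CPM in control mice, so that every repopulation mouse lay below every control. This sum rests largely on a few abundant genes. Tpm1 averaged 184 CPM in repopulation and 211 CPM in control mice, and Csrp1 147 and 190 CPM. Flna went the other way, with 125 and 118 CPM, and was not called in that comparison. Among single genes, 11.8% had repopulation below control in every mouse. Of 5 genes listed for serum response factor and myocardin, 4 were tested (Srf, Mkl1, Mkl2 and Fhl2), and the myocardin gene was not among them. Of the 4 tested, Srf itself fell by 0.18 in depletion against control (edgeR adjusted p = 0.0148), a call lost with length and GC trends taken out. In either other comparison 0 of them were called.

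The PDGF genes include the ligand of Pdgfrb. Pdgfb, made by endothelium and other cells, averaged 27.9 ± 1.99 CPM in repopulation, 22.9 ± 1.19 CPM in depletion and 31.9 ± 2.05 CPM in control mice (SD, n = 5 each). It fell by 0.48 in depletion against control (edgeR adjusted p = 6.44e-07), rose by 0.28 in repopulation against depletion (edgeR adjusted p = 0.00088) and was still lower than in controls, by -0.20 (edgeR adjusted p = 0.00837). Pdgfa fell by 0.17 in depletion against control (edgeR adjusted p = 0.0448) and by 0.26 in repopulation against control (edgeR adjusted p = 0.00135). Pdgfra, a receptor of oligodendrocyte precursors and fibroblasts, fell by 1.11 in depletion against control (edgeR adjusted p = 5.37e-05) and rose by 1.32 in repopulation against depletion (edgeR adjusted p = 9.37e-06). In all, 3 of 5 fell in depletion against control, 2 fell in repopulation against control and 2 rose in repopulation against depletion. The matching shares over all genes were 8.35%, 15.2% and 7.61%.

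Around Notch3, 5 of 14 other Notch genes rose in repopulation against depletion and 0 fell. They were Notch1 (0.28, edgeR adjusted p = 7.98e-05), the targets Nrarp (0.71, edgeR adjusted p = 0.000772), Hes5 (0.73, edgeR adjusted p = 0.00117) and Heyl, and the ligand Jag2 (0.16, edgeR adjusted p = 0.0114). Heyl, a target of NOTCH3 in mural cells, averaged 5.17 ± 0.800 CPM in repopulation, 3.86 ± 0.532 CPM in depletion and 4.09 ± 0.232 CPM in control mice (SD, n = 5 each). It rose by 0.42 against depletion (edgeR adjusted p = 0.0122) and by 0.33 against control (edgeR adjusted p = 0.0284). In repopulation against control 3 rose (the ligand Jag1, Notch1 and Heyl) and Hey1 fell by 0.16 (edgeR adjusted p = 0.0344). The targets Hes1 and Hey2 passed in no comparison, with log2 fold changes of -0.1 and -0.12 in repopulation against control. In depletion against control Hes5 and Nrarp fell by 0.62 and 0.57 (edgeR adjusted p = 0.0044 and 0.00594) and Jag1 rose by 0.30 (edgeR adjusted p = 0.0473). The number that rose in repopulation against depletion was 3 with length and GC trends taken out. With these trends left in, 7.61% of all genes were called higher in repopulation against depletion. In repopulation against control 13.9% of all genes were higher and 15.2% lower, and in depletion against control 8.35% were lower and 8.19% higher. Hes5, Nrarp and Notch1 are also used by astrocytes and neural progenitors.

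Of 23 other pericyte genes, 2 fell and 1 rose in depletion against control, and 4 rose and 1 fell in repopulation against depletion. Over all genes, 8.35% were called lower and 8.19% higher in the first of these, and 7.61% higher and 8.98% lower in the second. Cspg4, the NG2 proteoglycan, fell by 0.90 (edgeR adjusted p = 1.51e-10) and rose by 1.07 (edgeR adjusted p = 2.93e-12) in these comparisons. It is shared with oligodendrocyte precursors and is itself part of their summed level given above, so that sum follows Cspg4 in part. The other precursor genes Pdgfra, Matn4 and Neu4 also fell and rose in these comparisons. The part of the precursors in the Cspg4 change was not tested. Foxf2, a forkhead factor needed by brain pericytes, averaged 4.54 ± 0.164 CPM in repopulation, 3.10 ± 0.481 CPM in depletion and 4.07 ± 0.326 CPM in control mice (SD, n = 5 each). It fell by 0.40 in depletion against control (edgeR adjusted p = 0.0143) and rose by 0.56 in repopulation against depletion (edgeR adjusted p = 0.000959). Enpep, aminopeptidase A, and the forkhead factor Foxc1 rose by 0.38 and 0.34 in repopulation against depletion (edgeR adjusted p = 0.0207 and 0.0238). Mcam went the other way, up by 0.40 in depletion against control (edgeR adjusted p = 0.00169) and down by 0.25 in repopulation against depletion (edgeR adjusted p = 0.0411). In repopulation against control only Cspg4 passed, 0.17 higher (edgeR adjusted p = 0.0425). Without depletion mouse 2, the number that rose in repopulation against depletion was 2. The remaining genes of the list, among them Higd1b, Atp13a5 and Ndufa4l2, passed in no comparison.

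**Figure D3:**
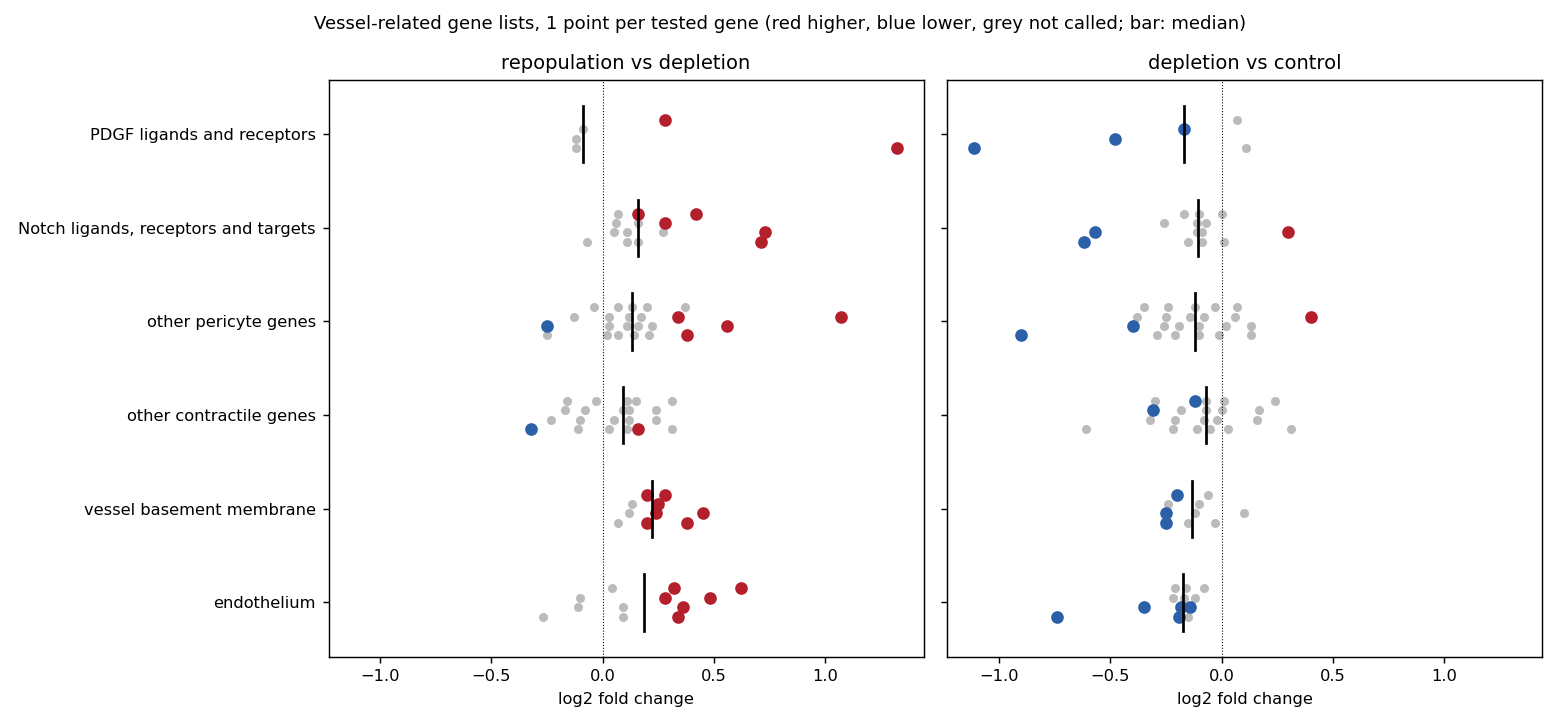
Log2 fold change (horizontal axes) of each tested gene in 6 vessel-related lists, for repopulation against depletion and depletion against control, with called genes in red (higher) or blue (lower), others in grey and a bar at the median. Of 10 basement membrane genes 7 were higher in repopulation than in depletion, and of 12 endothelial genes 6 were higher, where 7.61% of all genes were called higher.

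The basement membrane holds mural cells to the vessel. Of its 10 genes, 7 rose and 0 fell in repopulation against depletion, those with the smallest adjusted p being Lama4 (0.38, edgeR adjusted p = 0.0018), Nid2 (0.45, edgeR adjusted p = 0.00276), Lamc1 (0.20, edgeR adjusted p = 0.00879) and Lamb2 (0.20, edgeR adjusted p = 0.0093), which encode laminin chains and a nidogen. In depletion against control, the collagen IV genes Col4a1 (-0.20, edgeR adjusted p = 0.00136) and Col4a2 (-0.25, edgeR adjusted p = 0.0158) and the perlecan gene Hspg2 (-0.25, edgeR adjusted p = 0.023) fell. In repopulation against control Lama4 rose by 0.23 (edgeR adjusted p = 0.0307) and Lamc1 by 0.17 (edgeR adjusted p = 0.0162). Shares called over all genes were 7.61% higher in repopulation against depletion and 8.35% lower in depletion against control. For repopulation against control the share called higher was 13.9%. With length and GC trends taken out, 2 genes rose in repopulation against depletion, 0 fell in depletion against control and 0 rose in repopulation against control. Calls over all genes in that fit are given above.

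Endothelial genes were measured in the same libraries. Their summed level was 386 to 398 CPM in repopulation, 329 to 367 CPM in depletion and 379 to 416 CPM in control mice, so that the depletion mice lay below both other groups. Among single genes, 5.38% had depletion below control in every mouse, and 5.57% had repopulation above depletion in every mouse. Of 12 genes, 0 rose and 5 fell in depletion against control, among them Emcn (-0.74, edgeR adjusted p = 1.49e-05) and Itm2a (-0.35, edgeR adjusted p = 0.00447). In repopulation against depletion 6 rose and 0 fell, among them Slco1a4 (0.48, edgeR adjusted p = 1.23e-05), Emcn (0.62, edgeR adjusted p = 0.000183) and Tek (0.32, edgeR adjusted p = 0.000755). In repopulation against control 3 rose and 4 fell, with Slco1a4 up by 0.29 (edgeR adjusted p = 0.00154) and Ly6c1 down by 0.49 (edgeR adjusted p = 0.000371). The number that fell in depletion against control was 2 without depletion mouse 2 or mouse 5, 3 without control mouse 1, 2 or 3 or depletion mouse 3, and 2 with only the 2 groups compared in the fit. In the fit of all 3 groups, 8.35% of all genes were called lower in depletion against control and 7.61% higher in repopulation against depletion. For repopulation against control the shares were 13.9% higher and 15.2% lower. The part of the endothelium in the mural values was not tested. Of 8 fibroblast and meningeal genes, 0 passed in depletion against control or repopulation against depletion, and Col1a1 fell by 0.22 in repopulation against control (edgeR adjusted p = 0.0268). Their summed level was 413 to 612 CPM in repopulation, 502 to 670 CPM in depletion and 498 to 691 CPM in control mice. Ptgds alone averaged 424 CPM in repopulation, 506 CPM in depletion and 507 CPM in control mice, so this sum mostly follows 1 gene.

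The mural genes differed in how tightly mice of 1 group resembled each other. The coefficient of variation of Rgs5 was 2.43% in repopulation, 7.49% in depletion and 5.00% in control mice, where the median over 15261 genes was 5.86% in repopulation, 7.61% in depletion and 6.71% in control mice. That of Kcnj8 was 17.0% in repopulation, 29.0% in depletion and 17.7% in control mice. That of Tagln was 16.3% in repopulation, 23.4% in depletion and 30.7% in control mice. Kcnj8 and Tagln had the lowest counts of the 10, which adds counting error.

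Whether the genes vary together between mice was examined on deviations of log2 CPM from the group mean over all 15 mice. Over 45 pairs, Pearson's r ran from -0.573 to 0.651 with a median of 0.113, and 0 pairs passed Benjamini-Hochberg adjustment over the 45 (5 had an unadjusted p under 0.05) in two-sided permutation tests of 100000 resamples within groups. Kcnj8 and Vtn had the highest value (r = 0.651, permutation p = 0.013, Spearman's rho = 0.618, permutation p = 0.0202, adjusted p = 0.403 and 0.62), and r = 0.602 without the 2 mice farthest from the median. The smooth muscle pairs gave r = 0.537 for Myh11 and Tagln, 0.527 for Myh11 and Acta2 and 0.0746 for Acta2 and Tagln. The pan-mural pairs lay between -0.166 and 0.2. Rgs5 and Tagln had the lowest value (r = -0.573, rho = -0.561, adjusted permutation p = 0.403 and 0.62), which was -0.348 without the 2 farthest mice.

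**Figure D4:**
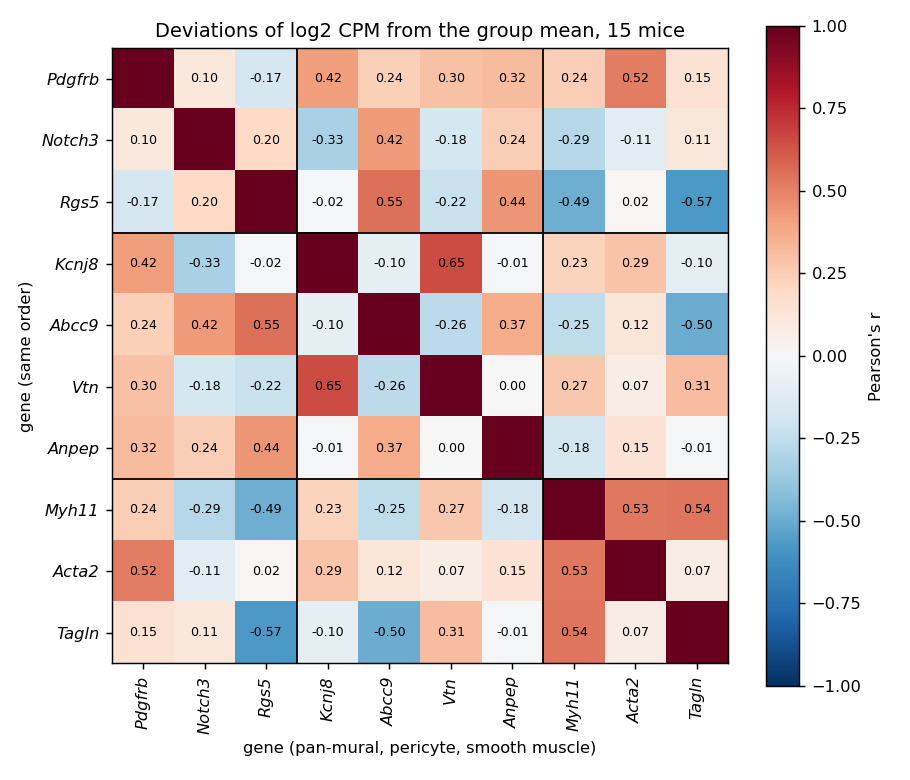
Pearson's r between mural genes over 15 mice, on deviations of log2 CPM from the group mean, with lines between the pan-mural, pericyte and smooth muscle genes. Values ran from -0.573 (Rgs5 and Tagln) to 0.651 (Kcnj8 and Vtn), and 0 of 45 pairs passed adjustment.

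As a description, the genes most like the mean of Myh11, Acta2 and Tagln over these 15 deviations, out of 13511 searched, were Nosip (r = 0.875), Stoml2 (0.868), Nkiras2 (0.819), Fastk (0.81) and Wdr75 (0.81). Those most like the mean of the pericyte genes Kcnj8, Abcc9, Vtn and Anpep were C1qb (0.884), Emp3 (0.876), Tufm (0.836), H2-Ke6 (0.811) and Map10 (0.796). C1qb is a microglial marker at 0.0714 ± 0.0329 CPM in depletion mice (SD, n = 5), so its deviations in that group rest on very few reads. The other genes named here belong to none of the lists used.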

How the data were processed

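The deposited table holds raw read counts per gene symbol as whole numbers. The submitters' processing notes name STAR, DESeq, DESeq2, FastQC, MultiQC and the mm10 build, without roles or versions. Strand use, counting tool and annotation release were not given in the sources used here. Columns were matched to samples by group and mouse number. The members and all gene lists were chosen with earlier results of these data known.

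The counts went into edgeR 4.0.16 (R 4.3.3). The filterByExpr rule left 18369 genes. Libraries were scaled by TMM, and 1 quasi-likelihood fit with robust dispersion covered all 15 libraries, with no covariate, as no batch is labelled. P-values were adjusted by Benjamini-Hochberg across the genes tested (threshold 0.05), and SE and 95% intervals come from that fit. CPM uses TMM-scaled totals, and log2 CPM a prior count of 2. The fit was tested on simulated counts. No 2 libraries of a group held identical counts (chi-square per degree of freedom 2.53 to 9.95 over 30 pairs). Each mouse was 1 library, so spread includes that between mice. Gene positions and lengths came from GENCODE M21 on GRCm38 (mm10) by symbol, which held 93.3% of symbols. From each list the text names called genes, at most the 4 with the smallest adjusted p per comparison, beside the 10 members and the 5 genes most like each mean. Genes that passed in no comparison, and those named to say what other cells make them, were added after their values were seen. Alternatives were DESeq2 1.42.0, RLE size factors, library totals, no filter, 2 groups only, a replicate block, length and GC trends per library as offsets, and leaving out each library.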

Additional observations from a re-analysis of the deposited data

Results flagged for a closer look

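Anpep in depletion mouse 2 had 4.34 CPM, while the nearest of the other 4 depletion mice had 6.28 CPM. The gap to the nearest value was 0.956 of the range of the group, beyond the 95% limit for 5 values. It was the 1 such value among 30 combinations of 10 genes and 3 groups, and chance flags about 1 in 20. The same mouse had the lowest Abcc9 (10.1 CPM), Rgs5 (80.3 CPM), Pdgfrb (24.5 CPM) and Notch3 (15 CPM) of its group. It also had the highest Myh11 (8.43 CPM), Tagln (1.66 CPM) and summed choroid plexus level (211 CPM) of its group, and their part in the Anpep value was not tested. Without this mouse the log2 fold change of Anpep was 0.18 in repopulation against depletion and -0.13 in depletion against control.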

How the results depend on the processing

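No pairing of mice by replicate number was seen: same-numbered libraries correlated at -0.131 to 0.103 (1 of 15 pairs over 0.1), and 1 library correlated best with its own number. The labels do not say whether the numbers pair mice, and low correlations cannot exclude it. With a replicate block, the number of mural genes lower in repopulation than control was 1, Kcnj8 (adjusted p = 0.00831), and the call of Vtn was lost (-0.27, adjusted p = 0.0573). Mural genes lower in depletion than control numbered 4 with no filter (Kcnj8 and Vtn added), 1 with only the 2 groups compared, 1 with length and GC trends taken out (with or without the block) and 1 to 3 without each library in turn. Mural genes lower in repopulation than control numbered 1 with length and GC trends taken out, with or without the block. These trends also moved counts over all genes: 859 lower in depletion than control (838 with the block), 1422 higher in repopulation than control (1305), and, in repopulation against depletion, 3482 lower (3271) and 776 higher (746). With library totals, 1791 were higher and 1236 lower in repopulation than depletion, against 1398 and 1649 with TMM. Signs turned for Acta2 in depletion against control (0.04, 0.05 with the block, and 0.02, 0.03 and 0.01 without control mouse 3 or 4 or depletion mouse 3, in a range of -0.10 to 0.03), for Abcc9 there (0.04 without depletion mouse 2, in a range of -0.08 to 0.04), and in repopulation against control for Rgs5 (-0.02, and -0.02 with the block) and Abcc9 (-0.03, and -0.03 with the block). None of these was called, and the cause was not tested.

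The Rgs5, Notch3 and Myh11 calls between repopulation and depletion, and the Notch3, Myh11 and Kcnj8 calls between repopulation and control, held under every alternative run, as did that of Rgs5 between depletion and control. The number of co-varying pairs was 0 under 2 other scalings and without each library, alternatives added after the data were seen, as were those for the lists. List counts of 1 to 3 genes often changed when 1 library was left out. Kcnj8 and Tagln are limited by read number.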
